A study of Mus musculus with 39 samples.

Results

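Adipokines are proteins that fat cells release into the blood. The 6 adipokine genes Adipoq, Lep, Retn, Cfd, Rbp4 and Nampt were followed in cells of mouse brown fat over a diet time course, as the genes whose symbol in the series' table of fold changes is one of these names. They are 6 of the 29411 gene symbols on the array and have 8 probes, of which the probe with the highest mean signal was read for each gene. RNA from C57BL/6J mice, an inbred laboratory strain, was hybridised to 39 Agilent arrays, each with 1 colour. The labels call the samples infiltrating macrophages of brown fat (SVCs). Stromal vascular cells are those left of fat tissue after its fat cells have been removed.

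Mice were placed on the diets after weaning. The low fat control diet (LFC) gave 10% of calories as fat and the high fat control diet (HFC) 60%, with sucrose. The other groups had the high fat diet with 5, 20 or 75 µg of a herbal formulation named KAL (HF5, HF20 and HF75). LFC had 10 arrays (Days 1, 6, 10 and 14, and Weeks 0, 3, 9, 12, 15 and 18). HFC had 11, with Week 6 added to these labels. Each dose had 6, from Week 3 to Week 18. Weeks were counted from Day 14, so Day 14 and Week 0 are the same day. There was 1 array per diet and time label. The series design speaks of 3 biological replicates, which the labels do not show, and whether an array pooled animals is not given in the sources used here. In the deposited table of fold changes the Day 14 columns of LFC and HFC carry names opposite to the labels, and 1 characteristic of the Week 12 HF20 array gives the high fat diet alone. Groups followed the source names, other than that of LFC Day 1, whose code there (LFB) is shared by no other array and whose listed diet is low fat. A diet difference is thus compared with how much arrays varied from label to label.

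Mature fat cells make adiponectin (Adipoq), which acts on muscle and liver to raise fat oxidation and insulin sensitivity, and leptin (Lep), which reports the size of the fat stores to the brain. Resistin (Retn) is made by fat cells in mice, adipsin (Cfd) is the serine protease that activates the alternative complement pathway, Rbp4 carries retinol in the blood, and Nampt makes nicotinamide mononucleotide, the precursor of NAD, inside cells and also outside them. Macrophages are no known main source of adiponectin, leptin or adipsin in mice, so these transcripts in a stromal fraction are also read as a measure of fat cell RNA. Nampt and Rbp4 are made by many cell types.

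The promoters of 4 members are shown. Adipoq, Nampt and Rbp4 followed the general fat cell genes closely over the arrays, and Lep did so less closely. Retn and Cfd, whose promoters are not shown, had a lower correlation with them than Lep over all arrays. That order turned round in some of the settings below. Lep was not well above background on 21 of 39 arrays. Whether promoter letters bear on how closely a gene followed was not tested. Each line holds the 250 bases before a start of the gene in RefSeq (GRCm38.p6), read 5′ to 3′ on the strand of the gene. For Rbp4 this is not the outermost start. Capitals mark matches on either strand to TTGCNNAA (the core of the site of C/EBP factors), the TATA letters TATAA, the GC box GGGCGG and the CCAAT box, whose letters are its name. Of 32851 mouse promoters of this length, 9.56%, 22.8%, 32.7% and 33.8% held these letters.
Adipoq, chr16:23146286-23146535, plus strand: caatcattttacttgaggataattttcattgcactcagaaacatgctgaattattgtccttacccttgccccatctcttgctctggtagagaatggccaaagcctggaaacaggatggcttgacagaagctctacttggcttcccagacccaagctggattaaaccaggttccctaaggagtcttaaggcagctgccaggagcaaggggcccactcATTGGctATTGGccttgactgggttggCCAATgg
Nampt, chr12:32820085-32820334, plus strand: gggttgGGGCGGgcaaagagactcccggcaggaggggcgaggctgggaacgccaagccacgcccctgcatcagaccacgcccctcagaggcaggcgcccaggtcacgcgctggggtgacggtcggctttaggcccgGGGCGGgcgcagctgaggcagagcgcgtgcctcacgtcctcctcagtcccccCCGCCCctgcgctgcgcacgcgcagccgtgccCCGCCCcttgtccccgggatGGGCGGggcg
Rbp4, chr19:38124812-38125061, minus strand: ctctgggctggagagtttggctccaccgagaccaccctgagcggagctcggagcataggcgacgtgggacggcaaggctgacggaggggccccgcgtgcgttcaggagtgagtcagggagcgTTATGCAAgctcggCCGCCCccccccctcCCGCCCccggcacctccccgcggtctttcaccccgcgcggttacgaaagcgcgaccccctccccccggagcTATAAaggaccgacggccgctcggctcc
Lep, chr6:29059971-29060220, plus strand: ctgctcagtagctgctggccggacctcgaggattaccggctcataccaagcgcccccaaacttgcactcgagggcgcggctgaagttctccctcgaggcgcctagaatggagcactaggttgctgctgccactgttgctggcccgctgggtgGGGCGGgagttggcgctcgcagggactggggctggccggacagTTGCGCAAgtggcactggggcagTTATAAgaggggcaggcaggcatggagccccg
The Adipoq promoter held 3 CCAAT letters, at 34, 27 and 7 bases before the start. The Nampt promoter held 5 GC boxes and had a GC content of 75.6%, against a median of 52.4% over all promoters. The Rbp4 promoter shown held the C/EBP letters 128 bases before the start, 2 GC boxes and TATAA at 28 bases. RefSeq lists a further start of Rbp4 upstream, the outermost of the gene. The 250 bases before that start held 1 CCAAT match, at 162 bases, and none of the other letters. The Lep promoter held a GC box at 98 bases, the C/EBP letters at 55 and TATAA at 31, where the match overlaps its own reverse complement. The windows of Retn and Cfd held 0 of these letters. No motif was shared by all 6 genes. The 6 genes lie on chromosomes 16 (Adipoq), 6 (Lep), 8 (Retn), 10 (Cfd), 19 (Rbp4) and 12 (Nampt) and are all protein coding.

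A value is the log2 of the spot's signal after background subtraction minus the 75th percentile of its array. The value 0 is thus that percentile, and a step of 1 is a doubling. On dim arrays 0 lies close to the background. On HF5 Week 18, where 31.2% of spots were well above background, the dimmest such spot lay at -0.83. The 75th percentile ranged from 18.1 to 3974 intensity units with a median of 129.9, and 31.2% to 98.0% of spots were well above background. On 3 arrays over 10% of spots carried outlier marks (HF20 Week 15, HF5 Week 12 and HFC Week 12). HF20 Week 15 was the brightest and had 71.4% of its spots marked, and its values are given but rest on few spots. The 12 general fat cell genes used below and 6 of 9 macrophage markers were well above background on all 39 arrays, as were 6 of 9 brown fat markers, 2 of 9 neutrophil markers and 4 of 5 skeletal muscle markers. Of the mesothelial (6) and hepatocyte (5) markers none was above background on every array. The labelled macrophages were thus accompanied by fat cell, brown fat and muscle transcripts throughout. In such bulk samples fewer cells of a type and less RNA per cell cannot be told apart.

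All members other than Lep were well above background on all 39 arrays. Adipoq had a median of 3.78 in LFC (lowest 3.00, highest 7.04), 3.59 in HFC (1.84 to 6.51), 5.33 in HF5 (2.48 to 6.23), 4.51 in HF20 (1.12 to 6.15) and 4.27 in HF75 (2.23 to 6.47). The order of medians was HF5, HF20, HF75, LFC and HFC, and the ranges of all diets overlapped. The highest value was LFC Week 18 and the lowest HF20 Week 15.

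Lep was near the limit of what the array can measure. It was well above background on 18 of 39 arrays: 5 of 10 LFC, 5 of 11 HFC, 3 of 6 HF5, 4 of 6 HF20 and 1 of 6 HF75 arrays. The median was -3.75 in LFC (-5.38 to 3.16), -3.91 in HFC (-6.44 to 0.37), -2.91 in HF5 (-4.81 to 1.11), -2.54 in HF20 (-4.20 to 1.40) and -4.04 in HF75 (-5.77 to -0.50). The order was HF20, HF5, LFC, HFC and HF75, and no neighbours in it were separated by more than their ranges. Lep spanned 9.60 log2 units over the arrays, more than Rbp4 (6.66), Nampt (6.36), Adipoq (5.91), Retn (5.82) and Cfd (5.10), and 21 of its values lie where the probe was not well above background.

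Retn had a median of 0.52 in LFC (-0.84 to 2.46), 0.18 in HFC (-2.93 to 1.98), 0.32 in HF5 (-1.15 to 2.63), 0.30 in HF20 (-1.77 to 2.88, 5 arrays since the spot of Week 15 was marked) and 0.32 in HF75 (-2.09 to 2.29). The medians of the diets lay between 0.18 and 0.52, far inside the range of any diet. A further Retn probe, which shares 22 bases with the first, gave the same pattern (r = 0.95 over 38 arrays).

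Cfd had a median of 5.72 in LFC (4.90 to 7.26), 6.26 in HFC (3.94 to 6.90), 5.97 in HF5 (4.59 to 7.48), 6.27 in HF20 (2.38 to 7.26) and 6.38 in HF75 (4.40 to 7.41). Its spot was saturated on 6 arrays (HFC Week 6, HFC Week 9, HF5 Week 9, HF20 Week 12, HF5 Week 15 and HF75 Week 15), and that of Adipoq on the same 6 and LFC Week 12. On these 7 arrays the median of all saturated spots lay at 5.60 to 6.44, so the values of Cfd (5.75 to 6.41) and Adipoq (5.67 to 6.51) there sit at the ceiling of the scanner and are lower bounds. Rbp4 was saturated on LFC Week 12, and the spots of Lep, Retn and Nampt on no array.

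Rbp4 had a median of 3.26 in LFC (1.84 to 5.93), 1.92 in HFC (0.02 to 5.84), 4.60 in HF5 (1.01 to 6.02), 2.86 in HF20 (-0.57 to 5.10) and 3.84 in HF75 (1.46 to 6.09). HFC had the lowest median and HF5 the highest, with overlapping ranges. Nampt had a median of 1.90 in LFC (0.00 to 3.86), 1.77 in HFC (0.58 to 4.18), 3.10 in HF5 (-0.66 to 4.36), 1.95 in HF20 (-1.87 to 4.02) and 1.72 in HF75 (1.19 to 4.49). A further Nampt probe was 3.87 lower at the median and followed the first with r = 0.83 over 36 arrays.

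**Figure D1:**
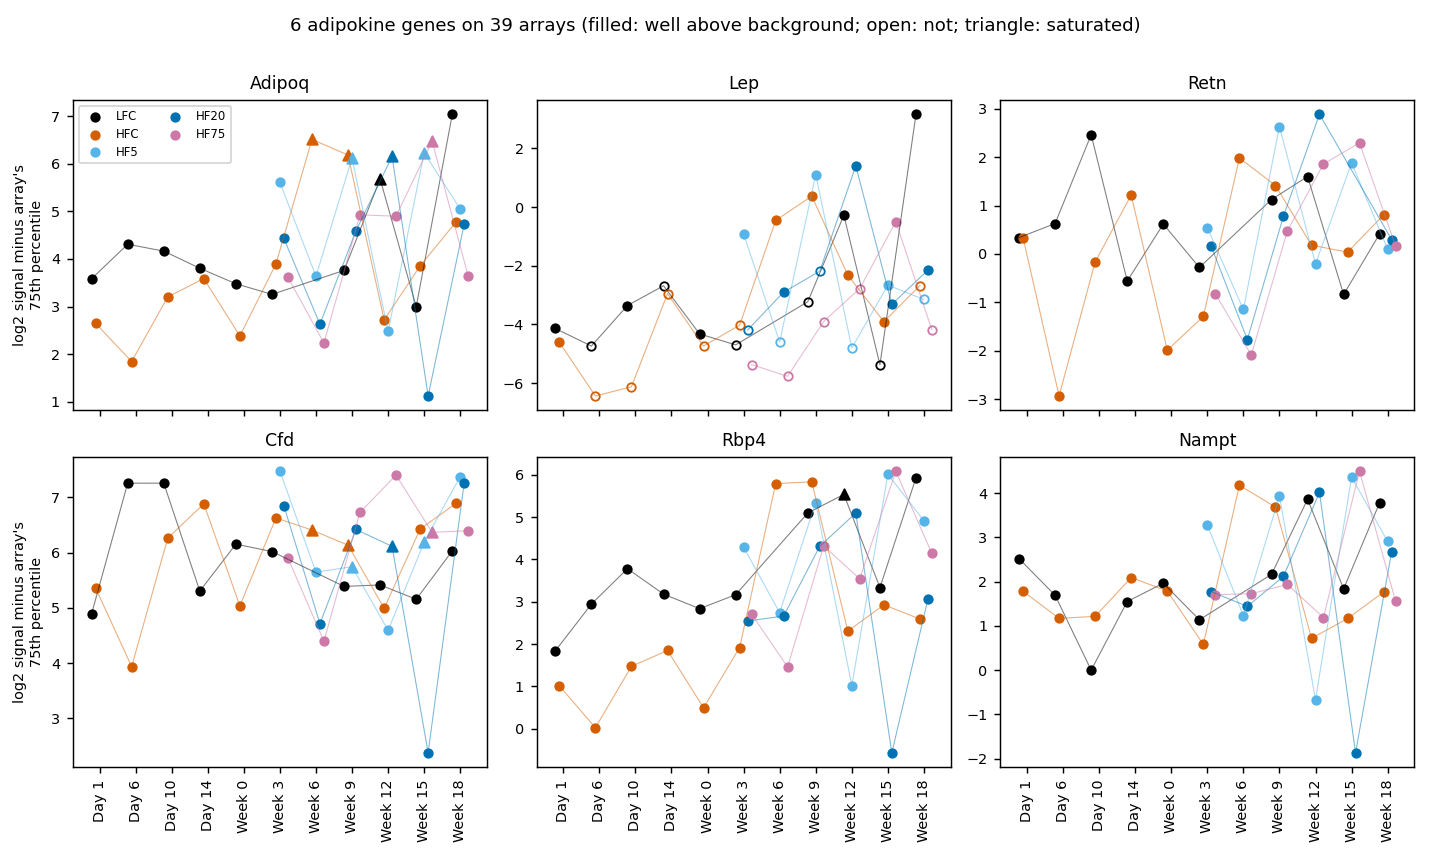
The log2 signal minus the 75th percentile of the array (y) of the 6 adipokine genes at each time label (x), 1 point per array, coloured by diet. The lines join arrays of a diet that come from different animals. Open points were not well above background and triangles were saturated. Lep is open on 21 of 39 arrays, and the highest points of Adipoq, Lep and Nampt fall on the same few arrays from Week 6 on.

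Repeats of the same day give a measure of the spread. Between Day 14 and Week 0 the HFC arrays differed by -1.20 for Adipoq, -1.79 for Lep, -3.20 for Retn, -1.85 for Cfd, -1.36 for Rbp4 and -0.31 for Nampt (Week 0 minus Day 14, log2). The LFC arrays differed by -0.33, -1.64, 1.18, 0.85, -0.34 and 0.41. Arrays of the same diet and day thus differed by over 1 log2 unit in both diets for Lep and Retn, in HFC alone for Adipoq, Cfd and Rbp4, and in neither for Nampt. For Lep neither HFC array was well above background, and of the LFC arrays only that of Week 0 was. Its differences thus lie at the limit of measurement and do not give the spread of leptin transcript.

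The arrays differed in how much fat cell transcript they held. The fat cell index is the mean over 12 genes that are not members (Plin1, Plin4 and Cidec of the lipid droplet, Lipe, Pnpla2 and Lpl, which split triglyceride, Aqp7, the glycerol channel, Adrb3, the adrenergic receptor of fat, Pparg and Cebpa, the factors that make a cell a fat cell, Fabp4, a fatty acid carrier, and Tusc5) of each gene's value minus its mean over arrays. It ranged from -3.96 on HF20 Week 15 to 2.43 on LFC Week 18. Its median was -0.05 in LFC, -0.48 in HFC, 0.77 in HF5, -0.02 in HF20 and -0.21 in HF75, and the ranges overlapped. It rested on 9 of 12 genes on HF20 Week 15 and on 11 on HF5 Week 12 and LFC Week 18. Spots of index genes were saturated too, Fabp4 on 29 of 39 arrays, Cidec on 8 and Pnpla2 and Lpl on 7. Plin1 and Plin4 were saturated on 6 arrays, Adrb3 on 4 and Pparg on 1. These values are lower bounds, and the level of a saturated spot also depends on the 75th percentile of its array.

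Over all arrays the members correlated positively with the index, by different amounts. For Nampt Pearson's r was 0.93 (Spearman's rho 0.89) with a slope of 1.06 log2 units per unit of index and a standard deviation of 0.51 around the line. For Adipoq r was 0.90 (rho 0.83, slope 1.07, SD 0.65) and for Rbp4 0.85 (rho 0.80, slope 1.23, SD 0.95). These 3 genes thus moved nearly in step with the general fat cell genes. For Lep r was 0.66 (rho 0.66, slope 1.19, SD 1.65), for Retn 0.58 (rho 0.60, slope 0.76, SD 1.12) and for Cfd 0.53 (rho 0.36, slope 0.47, SD 0.93). Lep had a slope like that of Adipoq and a spread around the line that was larger, and Cfd, whose spot was saturated on 6 of the arrays with the highest index, had the flattest line.

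The p of r in a permutation test with 100000 resamples was 1e-05, the smallest it can give, for Adipoq, Lep, Rbp4 and Nampt, 0.00012 for Retn and 0.00066 for Cfd, and after Benjamini-Hochberg adjustment over the 6 members 1.5e-05, 0.000144 and 0.00066. The p of rho for Cfd was 0.0236. Without the titled arrays r was 0.36 for Lep (adjusted p = 0.0519), and with quantile normalization 0.24 for Cfd (adjusted p = 0.132), neither of them past the threshold. With normexp background correction rho was -0.0020 for Lep, with r at 0.44. For Retn and Cfd r was 0.38 and 0.68 without the titled arrays, and 0.74 for both with normexp. In these settings Lep thus had the lowest r of the 6 members. Genes of the same array share its scaling, and this p does not separate that from a shared source. Without HF20 Week 15 and LFC Week 18, the 2 arrays farthest from the median of the index, r was 0.88 (Adipoq), 0.73 (Lep), 0.62 (Retn), 0.36 (Cfd), 0.82 (Rbp4) and 0.92 (Nampt). Without the arrays where its spot was saturated, r was 0.60 for Cfd (33 arrays, slope 0.65) and 0.83 for Adipoq (32 arrays, slope 0.93). As deviations from the mean of the arrays of the same scan date (33 arrays on dates with more than 1 array, 32 for Retn) r was 0.92, 0.64, 0.63, 0.60, 0.90 and 0.96 in the order Adipoq, Lep, Retn, Cfd, Rbp4 and Nampt.

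**Figure D2:**
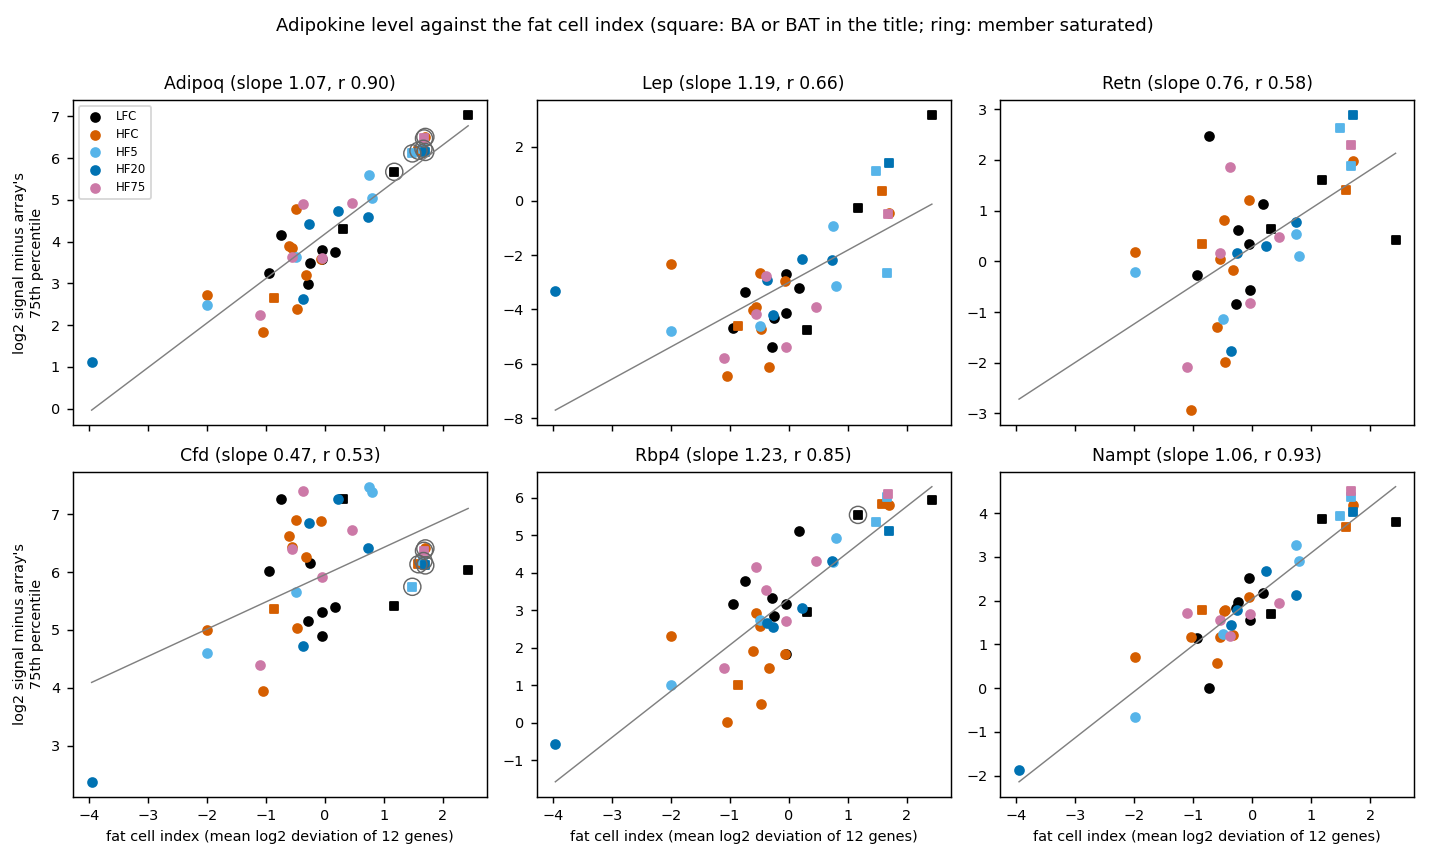
The log2 signal minus the 75th percentile of the array (y) of each adipokine gene against the fat cell index (x), 1 point per array, coloured by diet, with the least squares line. Squares are arrays with BA or BAT in the title and rings mark a saturated spot of that gene. Nampt (SD 0.51) and Adipoq (SD 0.65) lie close to their lines, Lep (SD 1.65) does not.

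The titles of 9 arrays hold BA or BAT in place of the code of the others, which the labels do not explain. They are HFC Day 1, LFC Day 6, HF5 Week 9, HFC Week 9, LFC Week 12, HF20 Week 12, HF5 Week 15, HF75 Week 15 and LFC Week 18. From Week 9 on, Adipoq was 5.67 to 7.04 on the 7 arrays with this title and 1.12 to 5.05 on the other 13, and Nampt was 3.68 to 4.49 against -1.87 to 2.91. These 2 of 6 members were higher on each of the 7 arrays than on any of the other 13. The same held for 8.09% of all 34043 probes tested and for 6 of 12 fat cell index genes. Probes that were lower on all 7 arrays are not in this share. Rbp4 was 5.10 to 6.09 against -0.57 to 5.10, Lep -2.66 to 3.16 against -5.38 to -2.15, Retn 0.42 to 2.88 against -0.84 to 1.86 and Cfd 5.42 to 6.37 against 2.38 to 7.41, all with overlap.

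The same 7 arrays had the fat cell index at 1.18 to 2.43 against -3.96 to 0.80. The mean of the 9 neutrophil markers was -4.74 to -2.77 on them against -2.16 to 2.70, and the mean of the 9 macrophage markers -1.44 to 0.18 against -1.69 to 2.14. The 7 arrays were also brighter, with a median 75th percentile of 872 against 48.8 on the other 13. The dimmest spot well above background lay at -6.06 on HF5 Week 9 and at -1.12 on LFC Week 9. Dim markers can thus read lower on the brighter arrays, and the part of this in the gap was not tested. HFC Week 6, which has no such title, was like the 7 arrays, with an index of 1.70 and Adipoq at 6.51. Its Lep was -0.46, its neutrophil mean -5.01 and its 75th percentile 748. The titled arrays of Day 1 and Day 6 were not like the 7, with an index of -0.86 and 0.31. The diet differences are given without the titled arrays where their direction changes.

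The first question of the design is how the high fat diet alone changed the genes. None of the members passed the test between HFC and LFC. Rbp4 was lower in HFC at 9 of 10 time labels, and its difference was the only one of the 6 with an unadjusted p under 0.05. The other members fell on both sides. Adipoq was lower in HFC at 7 of 10 labels, Nampt at 7 and Retn at 5, and Cfd was higher at 6. The value of Lep was lower at 7, mostly with a spot not well above background.

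Rbp4 on LFC and then HFC arrays was 1.84 and 1.01 at Day 1, 2.94 and 0.02 at Day 6, 3.78 and 1.47 at Day 10, 3.18 and 1.85 at Day 14, and 2.84 and 0.49 at Week 0. It was 3.17 and 1.92 at Week 3, 5.10 and 5.84 at Week 9, 5.54 and 2.31 at Week 12, 3.33 and 2.93 at Week 15, and 5.93 and 2.59 at Week 18. The difference ran from -3.34 to 0.74 with a median of -1.82, and Week 9, where the HFC array was one of those titled BA or BAT and the LFC array was not, was the only label at which HFC was higher. At Week 12 and Week 18, where the LFC array had the title and the HFC array did not, the differences were the largest.

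In the limma fit of diet and time label over all 39 arrays, Rbp4 differed by -1.45 between HFC and LFC (SE 0.67, 95% interval -2.82 to -0.07, p = 0.0382, adjusted p = 1.00). Adipoq differed by -0.42 (SE 0.65), Lep by -0.51 (SE 0.88), Retn by -0.49 (SE 0.57), Cfd by 0.08 (SE 0.48) and Nampt by -0.25 (SE 0.66), with adjusted p of 1.00. Of 34043 probes 0 were called (0%), and 959 had an unadjusted p under 0.05. The median difference was -0.45 over the members and 0.05 over all probes. With array weights, which give arrays with a large residual less say, Rbp4 was called at -1.86 (adjusted p = 0.00795), beside 0.094% of all probes. Over the 28 alternatives Rbp4 stayed between -1.86 and -0.94, with adjusted p from 0.00795 to 1.00. The 12 genes of the index all had negative differences, from -1.37 to -0.03, none of which was called. All 9 neutrophil markers had positive ones, from 0.31 to 1.07, and 7 of 9 macrophage markers, from -0.08 to 0.92, with 0 of either list called. Their part in the differences of the members was not tested.

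Without the 9 arrays titled BA or BAT the differences of Adipoq, Lep and Nampt turned positive, at 0.31, 0.34 and 0.26. That of Rbp4 was -1.19 (SE 0.67), with an adjusted p of 1.00.

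**Figure D3:**
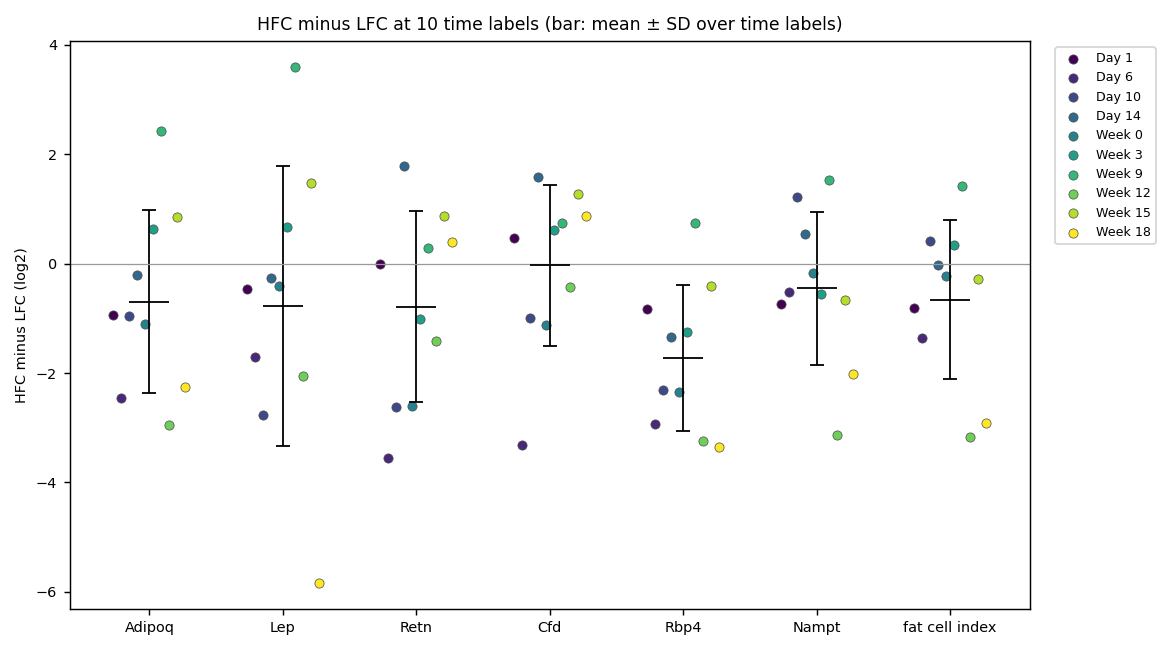
HFC minus LFC on the log2 scale (y) for the 6 adipokine genes and the fat cell index (x), 1 point per time label, with the mean and standard deviation over the 10 labels. Rbp4 is below 0 at 9 of 10 labels, and the mean ± SD of the other genes and of the index spans 0.

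To separate what a member shares with the general fat cell genes from what is its own, the fat cell index was added to the fit. The standard errors fell most for the members that follow the index, from 0.65 to 0.29 for Adipoq, from 0.66 to 0.25 for Nampt and from 0.67 to 0.30 for Rbp4. The difference of Rbp4 was -0.94 (SE 0.30, 95% interval -1.57 to -0.31, p = 0.00466), and its adjusted p was 0.749, so it was not called. The index is measured on the same arrays, so this is a description at equal level of the 12 genes.

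With the index Adipoq, Lep and Retn lay nearer to 0 than without it, and Cfd and Nampt did not. The differences were 0.08 for Adipoq (SE 0.29), 0.02 for Lep (SE 0.64), -0.14 for Retn (SE 0.46), 0.31 for Cfd (SE 0.40) and 0.27 for Nampt (SE 0.25). Their 95% intervals were -0.51 to 0.67, -1.31 to 1.35, -1.08 to 0.81, -0.52 to 1.14 and -0.25 to 0.78. A difference of a doubling in either direction thus lay outside the interval for Adipoq and Nampt and inside it for Lep. The intervals do not allow for saturated spots, which Adipoq had on 7 arrays and which several index genes had too. Of all probes 10 were called (0.0294%), 1 higher and 9 lower in HFC, and none of them was a member. With array weights Rbp4 was called at -1.44 (adjusted p = 0.00583), beside 0.117% of all probes. Without the titled arrays the difference was -1.37 (SE 0.40, adjusted p = 0.957). Over the 28 alternatives Rbp4 stayed between -1.44 and -0.65, with adjusted p from 0.00583 to 1.00.

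**Figure D4:**
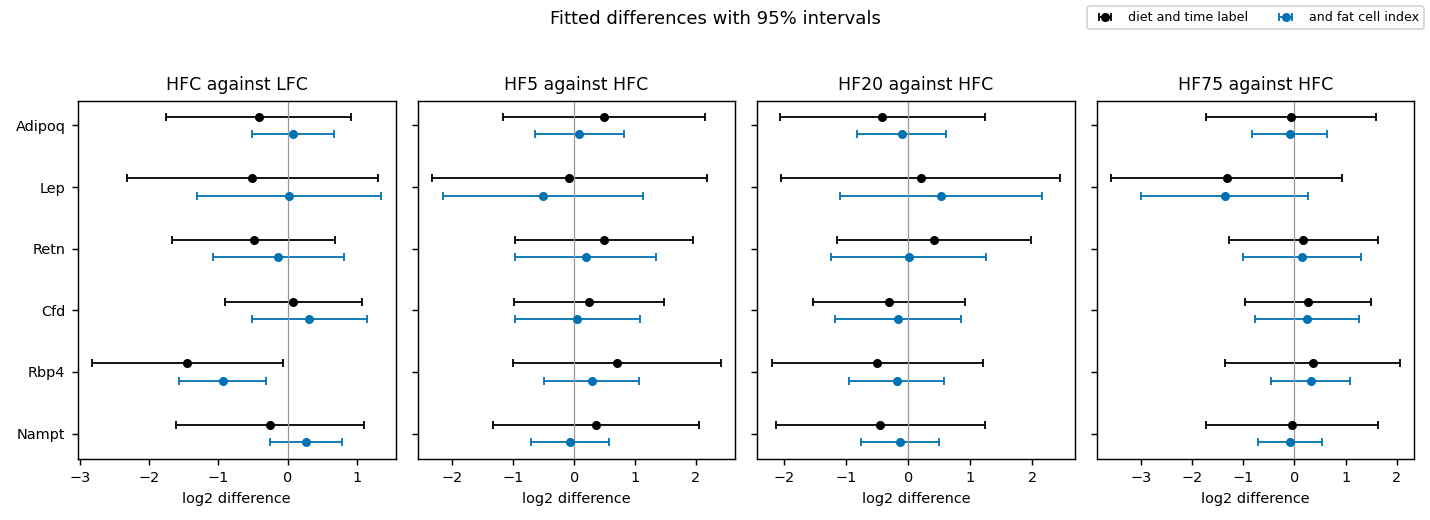
Fitted log2 differences (x) of the 6 adipokine genes (y) between HFC and LFC and between each dose and HFC, with 95% intervals, from the fit of diet and time label (black) and with the fat cell index as a further term (blue). The interval of Rbp4 lies below 0 in HFC against LFC in both fits, and all intervals of the doses span 0.

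Lep was examined apart from the fat cell content. LFC and then HFC values were -4.14 and -4.61 at Day 1, -4.74 and -6.44 at Day 6, -3.36 and -6.13 at Day 10, -2.68 and -2.95 at Day 14, and -4.33 and -4.74 at Week 0. They were -4.70 and -4.03 at Week 3, -3.23 and 0.37 at Week 9, -0.28 and -2.32 at Week 12, -5.38 and -3.91 at Week 15, and 3.16 and -2.68 at Week 18. Both arrays were well above background at Day 1 and Week 12 alone. At each of these labels HFC was the lower, but less the fat cell index it was the higher, by 0.34 and 1.13. At both, only 1 of the arrays had BA or BAT in its title (HFC at Day 1, LFC at Week 12). The HFC array of Week 12 also had an index of -1.996 and 11.1% of its spots marked. No effect of diet on Lep is thus read from these 2 values. Neither array was well above background at Day 6, Day 14 and Week 3, so these differences have no direction. LFC alone was at Day 10, Week 0 and Week 18, and HFC alone at Week 9 and Week 15, so the sizes of those differences are not known, only that the probe was well above background in that diet.

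Less the fat cell index, Lep was higher in HFC at 5 of 10 labels, with a mean difference of -0.12 ± 1.77 (SD, n = 10). Exchanging LFC and HFC within labels in all ways, an exact permutation test (two-sided) gave p = 0.838, where the smallest possible p is 0.00195. Lep was well above background on both arrays at only 2 of the 10 labels, on 1 of the arrays at 5 and on neither at 3, so the test mostly compares values at the limit of measurement and says little of leptin transcript. The arrays on which Lep was well above background had a fat cell index with a median of 0.49, and the other 21 one of -0.33.

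Single arrays departed from the index in both directions. On HF5 Week 15, with an index of 1.67 and Adipoq at 6.23, Lep was -2.66, whereas on HF5 Week 9, with an index of 1.48 and Adipoq at 6.12, it was 1.11. Less the index these are -4.33 and -0.37. Over all arrays the median of Lep less the index was -3.35, so a value near 0 lies well above the typical one. LFC Week 18 had the highest Lep, 3.16, and the highest index, 2.43. Lep less the index was 0.73 there, the highest of all arrays. On HF20 Week 15 Lep less the index was 0.64, where most spots were marked. On HFC Week 12, which had little brown fat transcript (Ucp1, the uncoupling protein of brown fat, at -3.18) and much mesothelial transcript (Upk3b at 0.75), it was -0.33. The index was -1.996 on that array. LFC Day 10 stood apart in the same way, with Ucp1 at -3.16, Upk3b at 0.58 and an index of -0.74, and at that label HFC minus LFC was -2.77 for Lep, -2.63 for Retn and -2.31 for Rbp4. Without these 2 arrays the fitted difference between HFC and LFC was -0.15 for Lep, -0.13 for Retn and -1.23 for Rbp4, and with the index 0.28, 0.16 and -0.84.

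The next question is whether the formulation moved the genes on the high fat diet. None of the 6 members was called at any dose, and of 34043 probes 0 were called at each (0%). With no adjustment 498 probes in HF5, 907 in HF20 and 1210 in HF75 were under 0.05, and no member. Against HFC the fitted differences of the members ran from -0.08 to 0.70 in HF5 (median 0.43), from -0.50 to 0.41 in HF20 (median -0.36) and from -1.33 to 0.36 in HF75 (median 0.06). The median over all probes was -0.03, -0.02 and 0.05. The doses share the HFC arrays, so these are not independent of each other. The slope over the 4 steps from HFC to HF75 ran from -0.45 to -0.06 with 0 of 34043 probes called (0%) and 2395 at an unadjusted p under 0.05, none of them a member.

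At matched time labels the members lay on both sides of HFC. In HF5 Adipoq, Lep, Retn and Rbp4 were each higher at 3 of 6 labels, Cfd at 2 and Nampt at 4. In HF20 Adipoq was higher at 2, Retn at 2 of 5, Lep, Rbp4 and Nampt at 3 and Cfd at 4. In HF75 Lep was higher at 1 label, Adipoq and Cfd at 2, Retn and Nampt at 3 and Rbp4 at 4. The counts of Lep include labels with neither array well above background, such as Week 18 in HF5 and Week 3 in HF20. At Week 6 all 6 members were lower in all 3 doses than on the HFC array, which is the one with an index of 1.70.

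Lep in HF75 was the difference farthest from 0. HFC and then HF75 values were -4.03 and -5.37 at Week 3, -0.46 and -5.77 at Week 6, 0.37 and -3.90 at Week 9, -2.32 and -2.78 at Week 12, -3.91 and -0.50 at Week 15, and -2.68 and -4.19 at Week 18. HF75 was lower at 5 of 6 labels. Its Lep was well above background at Week 15 alone, so the other 5 values are at the limit of what the array can measure. At Week 3 and Week 18 neither array was well above background, so these differences have no direction. Week 15 was the only label with both arrays well above background, and HF75 was higher there, by 3.41. The fitted difference was -1.33 (SE 1.09, 95% interval -3.58 to 0.93, p = 0.235) and with the index -1.36 (SE 0.79, -2.99 to 0.27, p = 0.0947, adjusted p = 0.715 with limma). With the log2 of the 75th percentile of the array as a further term these were -0.21 and -0.46, with another background correction (normexp) -0.10 and 0.0028, and without the time label as a term -0.31 and -0.67. Without Week 6 the first was -0.66 and without Week 15 it was -2.41. The difference was not larger than the spread over time labels. With the index, 0 of 34043 probes were called for any dose (0%), and the members ran from -0.51 to 0.29 in HF5, from -0.19 to 0.53 in HF20 and from -1.36 to 0.32 in HF75.

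Over time, from Day 1 to Week 18 on the 21 LFC and HFC arrays, all 6 members had positive slopes and none was called. The slope of Rbp4 was 0.49 per doubling of days (SE 0.12, p = 0.000689), that of Lep 0.55 (SE 0.20, p = 0.0109) and that of Adipoq 0.30 (SE 0.12, p = 0.0226), with adjusted p from limma of 0.174, 0.290 and 0.347. The slopes of Nampt, Retn and Cfd were 0.13 (SE 0.11), 0.11 (SE 0.13) and 0.07 (SE 0.09). The median slope was 0.22 over the members, 0.15 over the 12 fat cell index genes and -0.05 over all probes. Of 34043 probes 0 were called (0%) and 4057 had an unadjusted p under 0.05. The titled arrays lie mostly late, at 7 of their 9 from Week 9 on, and without them the slopes were 0.44 for Rbp4, 0.27 for Lep, 0.15 for Adipoq, 0.15 for Retn, 0.12 for Cfd and -0.0050 for Nampt, so that of Nampt was no longer positive and none was called.

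Whether the diet difference itself changed after the first 2 weeks was tested as an interaction. The members ran from -1.04 (Nampt) to 1.29 (Cfd) with 0 of 34043 probes called (0%), 800 at an unadjusted p under 0.05 and no member among them. For Rbp4 the change was 0.45, with a 95% interval of -1.50 to 2.39, so a shift of a doubling in either direction lay within the interval.

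Genes that carry or receive the adipokines were measured beside them, and none was called in any of the comparisons. Of 12 receptors and binding partners 11 could be tested between HFC and LFC, 7 with positive differences (-0.54 to 1.66, median 0.07). Adipor2, a receptor of adiponectin, was well above background on all 39 arrays (1.96 to 7.11, median 5.31), as was Adipor1 (-1.87 to 2.89, median 2.07) and Cdh13, T-cadherin, which binds adiponectin at the cell surface (0.88 to 4.66, median 3.64). Lepr, the leptin receptor, was well above background on 27 arrays and spanned -8.81 to 3.14. Stra6, the membrane receptor of Rbp4, spanned -5.72 on LFC Week 18 to 7.04 on HF75 Week 12, the widest range of this list. Ttr, the blood protein that binds Rbp4, was above background on 5 arrays and could not be tested. C3 and Cfb, the complement proteins that act with Cfd, were well above background on all 39 arrays (C3 3.26 to 7.52, Cfb -0.54 to 4.46).

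From Week 9 on the mean of these receptors and partners was -1.06 to -0.35 on the titled arrays and -1.82 to 1.39 on the others, so it was not higher there, unlike Adipoq and Nampt. Over time C3 (slope 0.29, p = 0.00563) and Tlr4 (0.24, p = 0.0124) had positive slopes and Cdh13 (-0.19, p = 0.0372) and Cap1 (-0.20, p = 0.0276) negative ones, with limma's adjusted p from 0.253 to 0.390.

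Of 5 genes of leptin signalling (Jak2, Stat3, Socs3, Ptpn1 and Sh2b1) 4 had negative differences between HFC and LFC (-0.84 to 0.49, median -0.30), and all 5 did between HF20 and HFC (-0.80 to -0.25). Of 4 genes that fold and assemble adiponectin (Ero1l, Erp44, Gstk1 and P4hb) 2 had positive differences in HFC (-0.12 to 0.19). Of 12 genes of NAD synthesis and use 6 did (-0.32 to 0.52). In that list Cd38, the NAD glycohydrolase, differed by -1.33 in HF5 (p = 0.0107) and -1.31 in HF20 (p = 0.0121), and Qprt, which makes NAD from tryptophan metabolites, by 1.40 in HF75 (p = 0.00916), with adjusted p from limma of 1.00, 0.998 and 1.00. All 3 relatives of resistin (Retnla, Retnlb and Retnlg) had positive differences in HFC (0.21 to 0.64), whereas Retn was at -0.49.

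Of 16 other adipokines, 15 were tested and 11 had positive differences in HFC (-0.41 to 0.52, median 0.22), with 0 called. Apln, apelin, differed by 1.09 between HF75 and HFC (p = 0.0106, adjusted p = 1.00 with limma). C1qtnf9, a relative of adiponectin, had a slope over time of -0.44 per doubling of days (p = 0.000354, adjusted p = 0.152), opposite in sign to the slope of Adipoq. The brown fat gene Elovl3, which elongates fatty acids, differed by -2.98 between HFC and LFC (SE 0.83) and by 2.58 between HF5 and HFC (SE 1.03), neither of them called.

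Among 8151 genes measured on all arrays, the 3 whose values were most like each member were found over 37 to 39 arrays. For Adipoq they were Ces3, a carboxylesterase that releases fatty acids (r = 0.93), 1810014F10Rik (0.92) and Cdo1, cysteine dioxygenase (0.92). For Lep they were Agpat9, an acyltransferase of glycerolipid synthesis (0.86), Tusc5 (0.86), which is one of the 12 index genes, and Tmem45b (0.85). For Retn they were Gm4949 (0.78), Mrap, a partner of the ACTH receptor in fat (0.76), and Tmem37 (0.74). For Cfd they were Gm7638 (0.78), Cidec of the lipid droplet (0.76) and Cox8a, a subunit of cytochrome c oxidase (0.76). For Rbp4 they were 2210408F21Rik (0.92), Prkaca, the catalytic subunit of protein kinase A (0.91), and Cisd1, an outer mitochondrial membrane protein (0.91). For Nampt the first 2 were Grsf1, an RNA binding protein of mitochondria (0.97), and Crls1, cardiolipin synthase (0.96). These correlations describe the arrays and share their scaling.

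Among the members themselves, Adipoq and Rbp4 were the most alike (r = 0.90 over 39 arrays), followed by Adipoq and Nampt (0.82), and Lep and Cfd the least (0.22).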

How the data were processed

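RNA of brown fat stromal vascular cells was measured on 39 arrays, grouped by diet and time label as the labels give them. The deposited scanner output gives the intensity of each spot, from which Agilent Feature Extraction (version 9.1 in the labels) had taken the background. Arrays were not normalized to each other in it. A table of the series, also deposited, has log2 values in which the authors divided each array by its 75th percentile and then took the difference from LFC at that label. It was used for gene symbols and as an alternative, and its baseline at Week 6 was not used here. The members and gene lists were chosen with earlier results of these data known.

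The log2 processed signal minus the 75th percentile of the array was taken, spots with outlier marks were dropped and spots of a probe averaged. A total of 34043 probes, well above background on at least 6 arrays, went into a fit of diet plus time label (limma 3.58.1, R 4.3.3), with Benjamini-Hochberg adjustment and a threshold of 0.05. The dose slope used 24 arrays, the time slope 21 and the interaction 20. Since there is 1 array per diet and label, p-values measure the spread over time labels. Arrays have no read depth, and their number and the signal over background limit the precision. Scripts were tested on simulated data.

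Time labels stood for replicate numbers. LFC and HFC deviations of the same label correlated with a median of 0.267, over 0.1 at 7 of 10 labels, so not all labels pair, and the label was kept as a term as planned. The 18 scan dates and 36 slides hold no date with more than 1 time label, and 12 dates hold more than 1 diet. The members are named at their brightest probe, list genes beside the count of their list, and like genes as the 3 with the highest Pearson correlation. Alternatives were other normalizations, background correction, filters, array weights, a random block on scan date (statmod 1.5.0), the methods' t-test, further probes, an index of 5 genes and the leaving out of each label. Added after seeing the data were array brightness as a term, exchanged Day 14 labels, no saturated spots in the correlations, and the leaving out of HF20 Week 15 or of LFC Day 10 and HFC Week 12. Python 3.11.15 with numpy 2.4.6, pandas 2.3.3, scipy 1.17.1 and matplotlib 3.10.9 was used.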

Additional observations from a re-analysis of the deposited data

Results flagged for a closer look

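Among 32 groups of 4 to 10 arrays checked, 3 values stood apart from the other arrays of their diet. HFC, with 11 arrays, lay outside this size. For independent groups chance gives about 1 in 20, but these groups share arrays, so that rate does not apply to their count. Lep on HF20 Week 12 was 1.40, with the next HF20 array at -2.15. Nampt on HF75 Week 15 was 4.49, with the next HF75 array at 1.94. Both arrays are titled BA or BAT and had a fat cell index of 1.70 and 1.68. The fat cell index on HF20 Week 15, where 71.4% of spots carried outlier marks, was -3.96, with the next HF20 array at -0.36. What sets these arrays apart was not tested.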

How the results depend on the processing

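Over 37 settings 933 alternative values of 38 results were computed. Of these 882 stayed the same, 45 reversed, 4 passed the threshold and 2 no longer did. Of the 882, 310 were counts of members called, which have no direction, and the others kept their direction and their side of the threshold. Of the 4, 2 were such counts. The count of members called was 0 in all comparisons and settings other than array weights, where it was 1 (Rbp4) in HFC against LFC with and without the fat cell index. The methods' t-test with time points as replicates gave 0 calls after Benjamini-Hochberg adjustment in 4 comparisons and 1284, 1539, 1759 and 2131 probes at an unadjusted p under 0.05 (HFC against LFC, then HF5, HF20 and HF75 against HFC). Over all probes HFC against LFC gave 0 calls, and 32 with array weights. With the index it gave 10, and 0 to 40 over the settings (40 with array weights, 16 with quantile normalization, 1 without the time label as a term). The trend over time gave 0, and 158 with array weights, and HF5 against HFC with the index gave 0, and 1374 without the 9 titled arrays.

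None of the reversed values passed the threshold, and they ranged in size up to 0.71 (Lep with the index and normexp). Without the 9 titled arrays HFC against LFC reversed for Adipoq (0.31), Lep (0.34) and Nampt (0.26), and the trend of Nampt (-0.0050). Cfd reversed with array weights (-0.37), Day 14 exchanged (-0.22) and the authors' table (-0.061), and Nampt with its further probe (0.49, trend -0.033) and without the 3 arrays with many marked spots (0.0026). With the index, array weights turned Adipoq (-0.20) and Cfd (-0.13), exchanging Day 14 turned Cfd (-0.00082), and Lep turned with quantile normalization (-0.30), normexp (-0.71), the index subtracted (-0.029) and array brightness as a term (-0.31). Retn turned with normexp (0.091), its further probe (0.038) and without LFC Day 10 and HFC Week 12 (0.16), and Lep in HF75 with normexp (0.0028). Leaving out each time label gave -0.96 to 0.11 for Lep, -0.076 to 0.45 for Cfd and -0.45 to 0.065 for Nampt in HFC against LFC, with the index -0.046 to 0.25 for Adipoq, -0.25 to 0.39 for Lep and -0.42 to 0.19 for Retn, and -0.029 to 0.11 for the trend of Cfd. Lep less the index was 0.13 with 5 index genes, 0.11 without LFC Day 10 and HFC Week 12, and -0.37 to 0.22 without each label. The correlation with the index lost its call for Lep without the titled arrays (r = 0.36, adjusted p = 0.0519, over all settings 1.5e-05 to 0.0519) and for Cfd with quantile normalization (r = 0.24, adjusted p = 0.132, over all settings 1.2e-05 to 0.132). The rank correlation of Lep was -0.00 with normexp. The causes were not tested.

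With no replicate block, that is, without the time label as a term, Rbp4 differed by -1.38 between HFC and LFC and by -0.84 with the index, Lep in HF75 by -0.31 and -0.67, and for Lep less the index the permutation p was 0.884. No call of a member changed. Signal over background limits Lep most, with 21 of 39 arrays not well above it.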
